A study of Mus musculus with 8 samples.

Results

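The genes described here are 42 markers of dividing cells, measured in mouse skin with patchy hair loss. Of them, 17 mark S phase, in which DNA is copied, and 25 mark mitosis and the approach to it. They are 42 of 20145 genes that the array names. Each was read by 1 probe, the one with the highest mean over the 8 arrays. The rule that set the members uses no difference between groups. Of the 42, 39 were well above background on at least 2 arrays and were tested, 16 of S phase and 23 of mitosis. The other 3, Ccne2, Aurkb and Cenpf, were well above background on no array and are not described further.

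RNA came from skin of C57BL/6N mice, with 1 Agilent single-colour array per sample. Of the Cchcr1 mutants, 2 samples came from skin with hair loss and 4 from normal skin, and the wild type gave 2 samples of normal skin. The mutants were made by genome editing of Cchcr1, a gene for a coiled-coil protein, and the labels give no allele, age, sex or treatment. The sample titles carry a number. Mutant097 covers the first of the hair loss replicates and mutant normal skin replicates 1 and 2, Mutant113 the other mutant samples, and Wild001 the wild type pair. What these numbers mark is not stated, so the replicates may share an animal, and p-values then measure only the spread between samples.

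Several facts of the whole series bear on every value. Keratins of skin epidermis (Krt5, Krt14, Krt1, Krt10) and dermal collagens (Col1a1, Col3a1) were above background on all 8 arrays. Cchcr1 itself lay between -0.07 and 0.49 in all samples, and its difference between mutant normal skin and wild type was 0.17 (limma, adjusted p = 0.688), although a small edit need not change the level of its RNA. Array brightness, as the 75th percentile of intensity, ran from 83.1 to 211.2, the lowest being wild type replicate 1. Within the normal skin of the mutants, the title number coincided with the row of the slide and with sex-linked expression: Xist was well above background on 3 arrays, all Mutant113, and Ddx3y and Eif2s3y on the other 5. Since Wild001 covers the whole wild type group, a difference from wild type cannot be told apart from a difference in title number.

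Cells copy their DNA once per cycle and then divide. Genes for copying, such as the MCM helicase, are switched on by E2F factors as a cell enters S phase. Genes for dividing follow later, under the DREAM and MuvB complexes, which contact an element called CHR, together with Mybl2, Foxm1 and NF-Y at CCAAT boxes. In skin, dividing cells lie in the basal layer of the epidermis and, during hair growth, in great number in the matrix at the base of the follicle.

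The promoters of the classes hold these letters in different shares. RefSeq promoters (build GRCm38.p6, 250 bases before to 50 after the start of the gene) were at hand for 34 members, 14 of S phase and 20 of mitosis, and for 27025 genes in all. Either strand was searched for TTTGAA (CHR), for the E2F words TTTCCCGC, TTTGGCGC, TTTCGCGC and TTTGCCGC, and for CCAAT (NF-Y box); the E2F words can overlap one another. The CHR letters were present in 14 of 20 mitosis promoters (70%) and in 1 of 14 S phase promoters (7.14%), that of Mcm2, against 18.1% of all promoters. An E2F word was present in 6 of 14 S phase promoters (42.9%), those of Mcm3, Mcm5, Mcm6, Mcm7, Cdt1 and Cdc6, and in 1 of 20 mitosis promoters (5%), that of Cdk1, against 2.32% of all promoters. CCAAT was found in 85% of mitosis, 64.3% of S phase and 37.9% of all promoters. A match is a description of letters and not a site that was shown to be used.

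**Figure D1:**
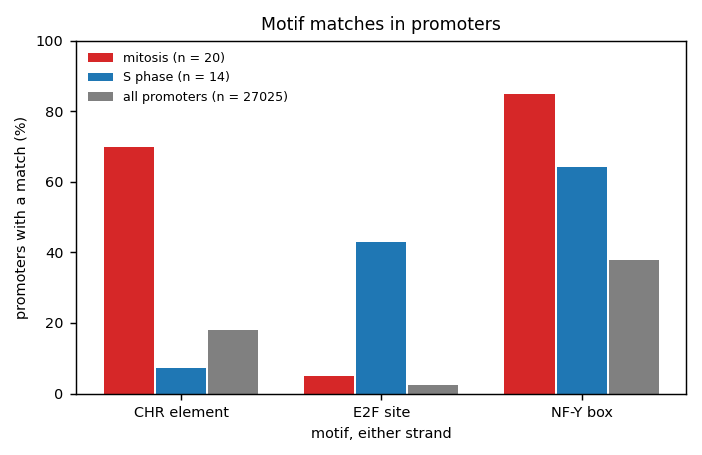
Share of promoters with at least 1 match on either strand, in percent, for mitosis members (red, n = 20), S phase members (blue, n = 14) and all RefSeq promoters (grey, n = 27025). The CHR bar is highest for mitosis members (70%) and the E2F bar for S phase members (42.9%).

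Of the mitosis members, 4 are shown because the CHR letters lie close to their start: Kif11 and Ube2c, which were called in hair loss skin, and Cdk1 and Cdc20, the central kinase and an activator of the anaphase complex. Each line holds the 160 bases before the start, 5′ to 3′ on the strand of the gene, with every match in capitals. They lie at chr19:37376222-37376381 on the plus strand (Kif11), chr2:164769769-164769928 on the plus strand (Ube2c), chr10:69352913-69353072 on the minus strand (Cdk1) and chr4:118437344-118437503 on the minus strand (Cdc20). TTCAAA and ATTGG are the CHR and CCAAT letters read on the opposite strand.
Kif11: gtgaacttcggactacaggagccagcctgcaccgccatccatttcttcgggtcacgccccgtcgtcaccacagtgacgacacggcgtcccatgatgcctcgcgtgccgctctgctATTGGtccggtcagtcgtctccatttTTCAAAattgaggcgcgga
Ube2c: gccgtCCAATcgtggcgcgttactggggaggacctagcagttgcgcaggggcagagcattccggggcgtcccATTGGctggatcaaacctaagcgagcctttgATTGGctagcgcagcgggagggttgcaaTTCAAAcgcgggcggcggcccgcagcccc
Cdk1: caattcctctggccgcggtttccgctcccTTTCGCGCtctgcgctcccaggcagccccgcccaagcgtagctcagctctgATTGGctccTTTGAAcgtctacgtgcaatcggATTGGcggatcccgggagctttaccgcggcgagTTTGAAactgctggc
Cdc20: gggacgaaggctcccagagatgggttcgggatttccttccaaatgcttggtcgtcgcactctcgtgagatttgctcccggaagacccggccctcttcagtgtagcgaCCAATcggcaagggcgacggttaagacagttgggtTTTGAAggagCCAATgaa

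For S phase, 3 promoters with E2F words are shown for contrast. They lie at chr11:98907991-98908150 on the plus strand (Cdc6), chr8:75109349-75109508 on the plus strand (Mcm5) and chr1:128359706-128359865 on the minus strand (Mcm6). In Mcm5 and in Mcm6 a pair of E2F words, 1 on each strand, overlap into 1 run of capitals.
Cdc6: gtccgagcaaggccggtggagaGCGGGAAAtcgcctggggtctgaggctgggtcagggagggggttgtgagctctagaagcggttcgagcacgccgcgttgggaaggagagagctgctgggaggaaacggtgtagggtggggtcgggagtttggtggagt
Mcm5: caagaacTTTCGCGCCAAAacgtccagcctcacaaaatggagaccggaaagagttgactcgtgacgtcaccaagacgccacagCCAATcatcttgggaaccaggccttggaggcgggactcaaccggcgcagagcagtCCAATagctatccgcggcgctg
Mcm6: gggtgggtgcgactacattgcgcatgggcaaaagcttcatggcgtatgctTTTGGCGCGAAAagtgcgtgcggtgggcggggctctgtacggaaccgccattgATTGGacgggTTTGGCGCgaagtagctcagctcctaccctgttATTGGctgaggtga

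The classes differ in these letters but not without exception. Bub1, Cenpe and Ccnb1 have CCAAT without the CHR letters in this window, and Mybl2, Birc5 and Nusap1 have none of the motifs. In S phase, E2f1, Tyms and Ccne1 have none.

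Levels below are log2 intensities minus the 75th percentile of the same array, so that 0 stands for that percentile and a difference of 1 for a doubling. Differences were tested with limma over all 30417 probes tested, and called at a Benjamini-Hochberg adjusted p under 0.05.

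The first question was whether mutant skin that kept its hair differed from wild type skin. Every one of the 23 mitosis members tested was higher in mutant normal skin on its chosen probe, with a median difference of 1.85 (3.61-fold). The folds ran from 2.11 to 5.38 apart from Bub1, which was at background in wild type and is given below as a bound. S phase members differed less: 14 of 16 were higher and 2 lower, with a median of 0.42 (1.34-fold) and a range from -0.45 to 1.30. The median over all probes was -0.04. None of the 39 members passed the adjusted threshold, where 0.575% of all probes were called higher. At an unadjusted p under 0.05, 23 of 23 mitosis members and 4 of 16 S phase members were higher, against 8.14% of all probes. The lowest mutant sample lay above the highest wild type sample for 23 mitosis members and 5 S phase members, against 13.6% of all probes. With 1 member of each class that was at background in wild type set at its bound, the medians were 1.84 and 0.37.

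**Figure D2:**
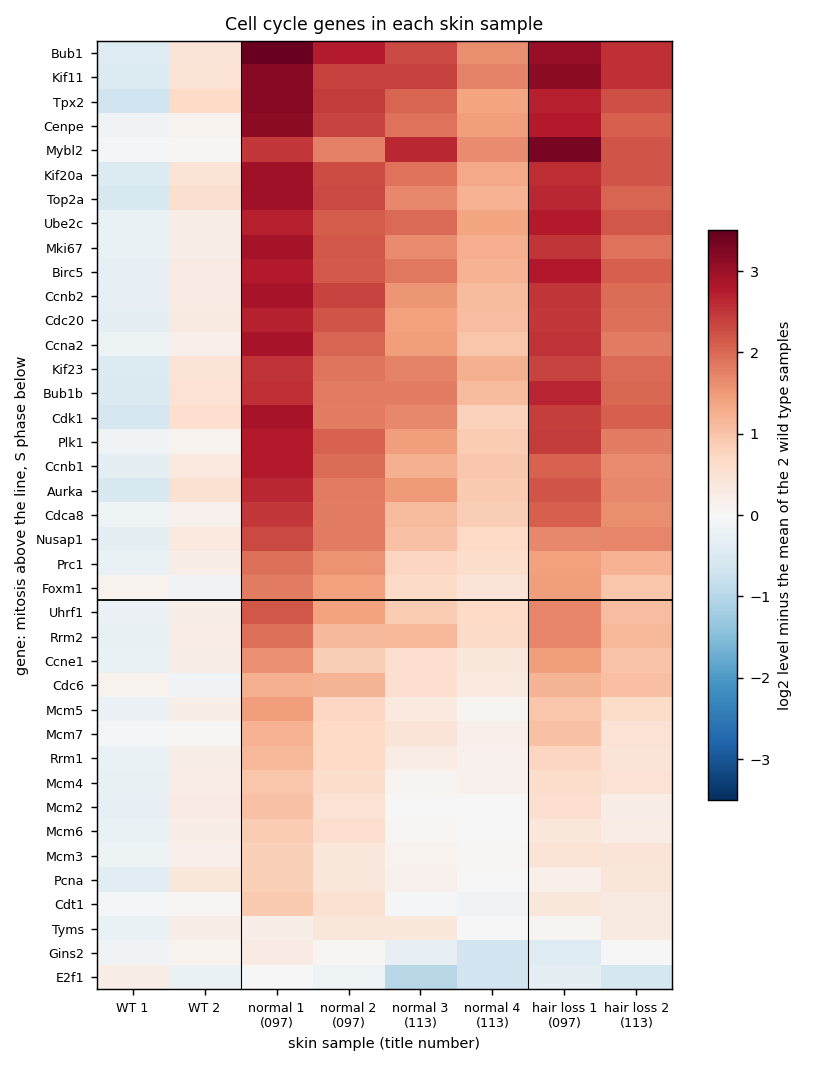
Log2 level of each tested member in each of the 8 samples, minus the mean of the 2 wild type samples (colour), with mitosis genes above the line and S phase genes below it, ordered by the difference between mutant normal skin and wild type. Mitosis rows are red in all 6 mutant samples, and S phase rows are paler, with E2f1 and Gins2 lowest.

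By role, the medians of the mitosis members lay between 1.61 and 2.05. Ki-67 (Mki67) and topoisomerase II alpha (Top2a), which organise chromosomes, were higher by 2.00 and 2.05. Cdk1 and its cyclins Ccna2, Ccnb1 and Ccnb2, which drive entry into mitosis, lay between 1.74 and 1.97. Mitotic kinases and passenger proteins (Plk1, Aurka, Birc5, Cdca8) had a median of 1.76, and motor and spindle proteins (Kif11, Kif20a, Kif23, Tpx2, Nusap1, Prc1) a median of 1.98. The checkpoint, kinetochore and anaphase-complex genes (Bub1, Bub1b, Cenpe, Cdc20, Ube2c) had a median of 2.05. The transcription factors Foxm1 and Mybl2 differed by 1.08 and 2.14, a median of 1.61. Second probes did not always follow the chosen one: for Tpx2, a spindle assembly factor, the chosen probe gave 2.26 and another, well above background on 6 arrays, -0.65. Other Ccnb1 probes gave 0.90 and 2.30.

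Kif11, the motor that pushes spindle poles apart, had a level of -4.34 and -3.41 in wild type skin. It reached -0.68, -1.49, -1.49 and -2.14 in mutant normal skin, whereas hair loss skin gave -0.75 and -1.32. The wild type samples were the lowest by far, and the mutant groups overlapped. The difference between mutant normal skin and wild type was 2.43 (SE 0.43, 5.38-fold, limma adjusted p = 0.0584), just short of the threshold. Its size depends on the background correction: the normexp method gave 0.78. Kif11 was well above background on 7 arrays.

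Ube2c, the ubiquitin-conjugating enzyme of the anaphase complex, was at -0.66 and -0.22 in wild type skin. Its levels were 2.27, 1.68, 1.54 and 0.95 in mutant normal skin, whereas hair loss skin gave 2.33 and 1.73. No mutant sample came near the wild type pair, and the difference in normal skin was 2.05 (SE 0.36, 4.15-fold, limma adjusted p = 0.0597). A second probe for Ube2c gave 2.02.

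Mybl2, a transcription factor of the MuvB complex, had nearly equal wild type values of -0.17 and -0.10. Mutant normal skin gave 2.35, 1.64, 2.50 and 1.52, and hair loss skin 3.20 and 2.06. Here replicate 3 of Mutant113 was the highest of the normal samples, whereas in 22 other mitosis members the highest was replicate 1 of Mutant097. The difference was 2.14 (SE 0.39, 4.4-fold, limma adjusted p = 0.0673). A second Mybl2 probe, also above background on all 8 arrays, gave 0.85, so the size of this change depends on the probe.

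Cenpe, a kinetochore motor, was at -0.55 and -0.28 in wild type skin, and the mutant normal samples were at 2.72, 1.95, 1.49 and 1.05. Hair loss skin lay within that range, at 2.37 and 1.67. The difference in normal skin was 2.22 (SE 0.44, limma adjusted p = 0.0874). Bub1, a kinase of the spindle checkpoint, was not well above background in either wild type sample, where it measured -4.70 and -3.82. Its mutant normal levels were -0.80, -1.52, -1.96 and -2.62, and those in hair loss skin -1.21 and -1.71. Mutant normal skin was at least 3.14-fold higher than wild type (limma adjusted p = 0.0793, measured means -4.26 in wild type and -1.72 in mutant normal skin). This bound holds only for the background correction used here, as the normexp method gave Bub1 a log2 difference of 0.68.

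Ki-67 and PCNA, the proteins most used to stain dividing cells, show the contrast between the classes; these examples fall outside the rule for genes given by sample. Mki67 was at 1.30 and 1.76 in wild type skin, at 4.43, 3.71, 3.18 and 2.79 in mutant normal skin, and at 4.04 and 3.43 in hair loss skin. Its difference in normal skin was 2.00 (SE 0.44, 4-fold, limma adjusted p = 0.109). Pcna, the clamp that holds DNA polymerase, was at 2.86 and 3.66, then at 4.09, 3.65, 3.40 and 3.25, and at 3.45 and 3.68 in the same order. All mutant samples exceeded wild type for Mki67, whereas for Pcna wild type replicate 2 lay above 4 of the 6 mutant samples, and the difference was 0.34 (SE 0.30, limma adjusted p = 0.602). Cdk1, the kinase that starts mitosis, was at -3.74 and -2.55 in wild type skin, at -0.25, -1.35, -1.45 and -2.33 in mutant normal skin and at -0.72 and -1.05 in hair loss skin. Its lowest mutant value was close to its higher wild type value, and its difference of 1.80 had a wide SE of 0.56 (limma adjusted p = 0.182).

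The smallest differences among the mitosis members were those of Foxm1, a transcription factor of mitotic genes, and Prc1, which bundles microtubules at the midzone. Foxm1 was at -1.26 and -1.53 in wild type skin, at 0.39, 0.03, -0.72 and -0.95 in mutant normal skin and at 0.08 and -0.42 in hair loss skin. Prc1 was at 0.91 and 1.38, then at 3.07, 2.73, 1.90 and 1.75, and at 2.59 and 2.35 in the same order. Even for these genes no mutant sample overlapped wild type, but the differences of 1.08 and 1.22 had limma adjusted p-values of 0.230 and 0.193.

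Among S phase members, the largest differences belonged to Uhrf1, which carries DNA methylation through replication, and Rrm2, the regulated subunit of ribonucleotide reductase. Uhrf1 was at 1.30 and 1.72 in wild type, at 3.68, 2.93, 2.41 and 2.21 in mutant normal skin and at 3.21 and 2.59 in hair loss skin. Rrm2 was at 1.04 and 1.55, then at 3.23, 2.43, 2.46 and 1.96, and at 3.01 and 2.46 in the same order. All mutant samples of both genes exceeded wild type, and the differences in normal skin were 1.30 (SE 0.42) and 1.23 (SE 0.36), with limma adjusted p-values of 0.193 and 0.169. A second, dimmer Uhrf1 probe went the other way, at -0.64.

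The helicase that opens DNA at origins differed little. Its 6 subunits, Mcm2 to Mcm7, differed by 0.34 to 0.65 between mutant normal skin and wild type, a median of 1.34-fold. Mcm7 had the smallest p of them: 2.65 and 2.75 in wild type, 3.92, 3.39, 3.15 and 2.88 in mutant normal skin, then 3.72 and 3.21 in hair loss skin. Its groups did not overlap, yet the difference was 0.64 (SE 0.30, limma adjusted p = 0.325).

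Ccne1, the cyclin of S phase entry, was at -0.72 and -0.26 in wild type skin and at 1.11, 0.38, 0.09 and -0.13 in mutant normal skin. Hair loss skin was at 0.98 and 0.52. The difference in normal skin was 0.85 (SE 0.36, limma adjusted p = 0.279), while a second Ccne1 probe, well above background on 2 arrays, gave -0.40. Cdc6, which loads the helicase, was not well above background in wild type skin, where it measured -3.84 and -4.08. It was at -2.77 and -2.92 in hair loss skin. Its levels of -2.72, -2.78, -3.37 and -3.63 in mutant normal skin make it at least 1.19-fold higher there (limma adjusted p = 0.218, measured means -3.96 in wild type and -3.13 in mutant normal skin). Under normexp background correction its log2 difference was 0.14.

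The next 3 S phase members are those with the smallest absolute differences and the lowest one. Tyms, which makes thymidylate, was at -3.19 and -2.72 in wild type and at -2.76, -2.56, -2.59 and -2.95 in mutant normal skin, a difference of 0.24 (SE 0.21), and at -2.85 and -2.64 in hair loss skin. Gins2, part of the moving helicase, was at -1.54 and -1.28 against -1.11, -1.35, -1.70 and -2.09, a difference of -0.16 (SE 0.29), with -1.87 and -1.42 in hair loss skin. E2f1, the activator of S phase genes, was at 1.22 and 0.78 against 0.98, 0.86, 0.04 and 0.33, a difference of -0.45 (SE 0.30, limma adjusted p = 0.484), with 0.67 and 0.38 in hair loss skin. In all 3 the wild type and mutant samples overlapped, and E2f1 and Gins2 were the pair of members with a lower mean in mutant normal skin.

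Member by member, the classes hardly mixed. In mutant normal skin against wild type, 21 of 23 mitosis members had a larger difference than every S phase member, and 2 S phase members (Uhrf1 and Rrm2) exceeded the smallest mitosis difference, that of Foxm1. The median of the mitosis members exceeded that of the S phase members by 1.44. Averaged over its members and set against the wild type mean, the mitosis class was at 2.74, 2.06, 1.64 and 1.13 in mutant normal skin, and the S phase class at 1.04, 0.62, 0.23 and 0.07. In hair loss skin the values were 2.46 and 1.93 for mitosis and 0.67 and 0.48 for S phase. The gap between the classes was thus 1.06 to 1.79 in every mutant sample. In the wild type samples it was -0.16 and 0.16. These mirror each other because each gene was set against the wild type mean, so they show only the spread of that pair. In bulk RNA, more dividing cells and more RNA per dividing cell cannot be told apart.

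**Figure D3:**
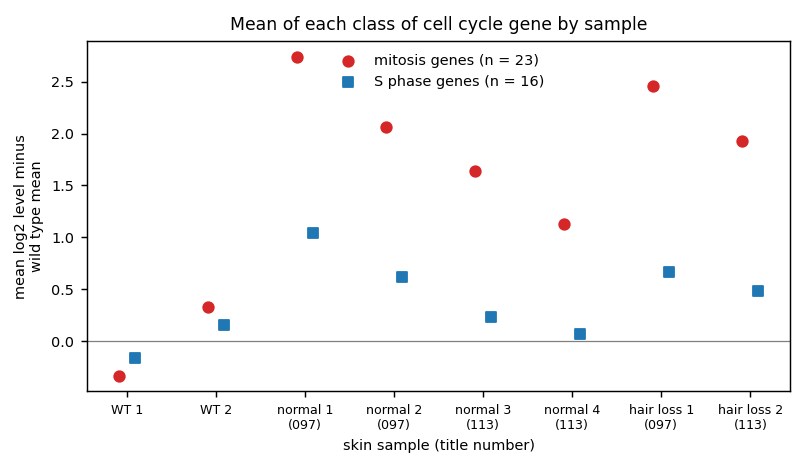
Mean log2 level of the 23 mitosis members (red circles) and 16 S phase members (blue squares) in each sample, minus the wild type mean of the same genes. Mitosis means are 1.13 to 2.74 in the 6 mutant samples and S phase means 0.07 to 1.04, with the samples of Mutant097 above those of Mutant113 in normal skin.

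The second question was whether skin that had lost its hair differed from the normal skin of the same genotype. No member was called in this comparison. The mitosis members were all higher in hair loss skin, but by a median of 0.29 (1.22-fold, range 0.10 to 0.63), and the S phase members had a median of 0.07, with 11 higher and 5 lower. With the row of the slide as a block, which sets hair loss against the normal skin of Mutant097 only, the medians turned to -0.29 and -0.30. The share called over all probes was also 0.00%. At an unadjusted p under 0.05, 0 members differed, against 1.79% of all probes higher at that level. In 0 members did the hair loss samples both lie above the 4 normal samples, against 5.73% of all probes.

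The smallest p-values belonged to Mybl2 and Bub1b among mitosis genes and to Ccne1 and Cdc6 in S phase. Mybl2 was higher by 0.63 (SE 0.39), with 3.20 in hair loss replicate 1 and 2.06 in replicate 2, and only the first was above all normal samples. Bub1b, a checkpoint protein that restrains the anaphase complex, was at -3.64 and -2.64 in wild type skin, at -0.58, -1.32, -1.35 and -2.02 in mutant normal skin and at -0.47 and -1.13 in hair loss skin. Hair loss skin exceeded mutant normal skin by 0.52 (SE 0.44). The differences of Ccne1 and Cdc6 were 0.39 (SE 0.36) and 0.28 (SE 0.29). All 4 had a limma adjusted p of 0.999.

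The third comparison set hair loss skin against wild type skin. It shares its wild type samples with the first comparison. Here 3 members were called, all of mitosis: Mybl2 rose by 2.76 (SE 0.45, 6.79-fold, limma adjusted p = 0.0376), Ube2c by 2.47 (SE 0.42, 5.55-fold, adjusted p = 0.0406) and Kif11 by 2.84 (SE 0.49, 7.15-fold, adjusted p = 0.0435). Of all probes, 0.993% were called higher. Kif11 was well above background on 7 of the 8 arrays, and normexp background correction gave it a difference of 0.98. Second probes gave 0.99 for Mybl2 (limma adjusted p = 0.195) and 2.44 for Ube2c (limma adjusted p = 0.0364), so the call of Mybl2 depends on the probe. The calls are close to the threshold: without hair loss replicate 1, or without either wild type sample, 0 members were called, without mutant normal skin replicate 2 or hair loss replicate 2 only 1, and without mutant normal skin replicate 1, 7. With the row of the slide as a block, 0 members were called. Hair loss and wild type arrays shared no row of the slide, so a difference between these groups cannot be told apart from a difference in row. The counts under these settings were not set against the share of all probes called in each.

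The mitosis median in hair loss skin against wild type was 2.23 (4.69-fold, range 1.22 to 2.84) and the S phase median 0.52 (1.43-fold, range -0.48 to 1.44). With slide row as a block they were 1.16 and -0.10, and normexp background correction gave a mitosis median of 1.35. At an unadjusted p under 0.05, 23 mitosis members and 4 S phase members were higher, against 11.2% of all probes. Both hair loss samples lay above both wild type samples for 23 mitosis members and 12 S phase members, against 24.8% of all probes. Again 21 mitosis members exceeded every S phase member. These counts use the chosen probes. Second probes gave -0.26 for Tpx2 and -0.01 for Foxm1 here, whereas other probes of Birc5, Ccnb1, Cdca8, Mki67, Mybl2 and Ube2c were higher in hair loss skin.

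**Figure D4:**
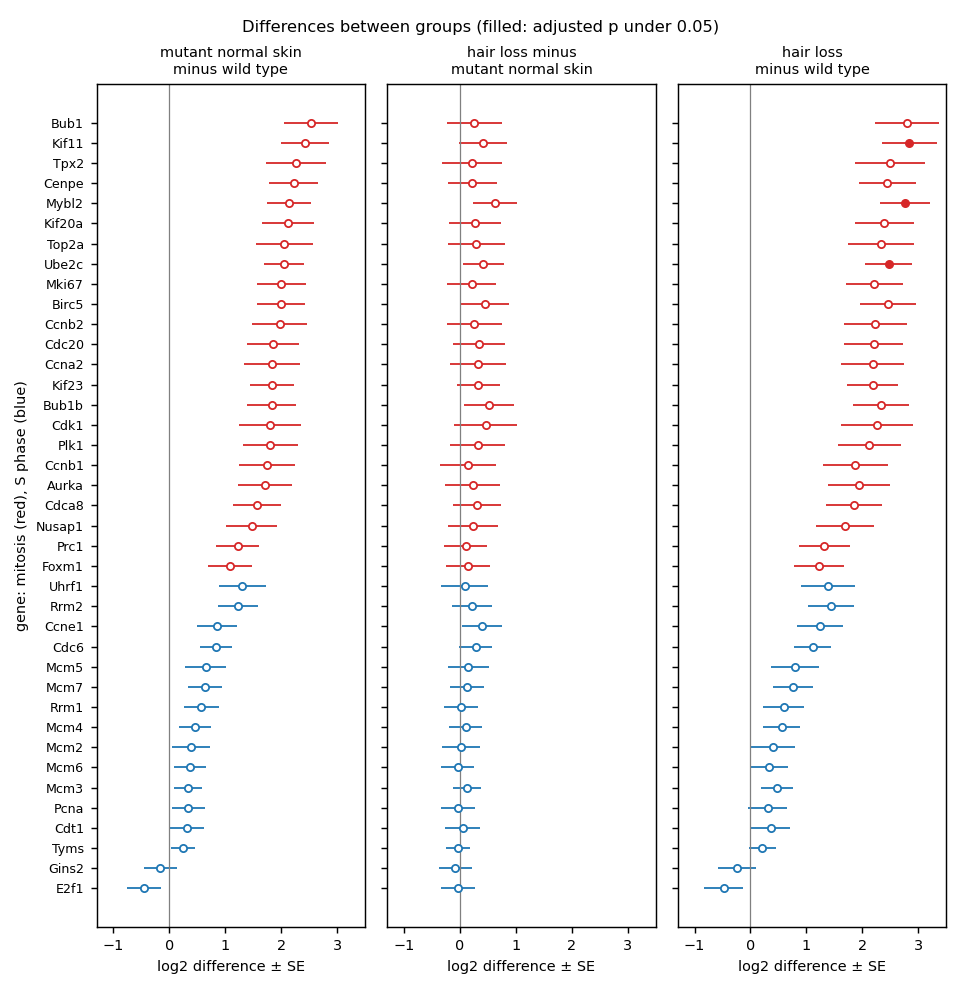
Log2 difference of each tested member, with its standard error from limma, in the 3 comparisons (n = 2 wild type, 4 mutant normal and 2 hair loss samples), mitosis in red and S phase in blue. Filled points passed an adjusted p of 0.05: Kif11, Ube2c and Mybl2 in hair loss skin against wild type, and 0 members in the other panels.

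Within the mutants, the levels followed the title number. In normal skin, both samples of Mutant097 lay above both of Mutant113 for 21 of 23 mitosis members and 14 of 16 S phase members, against 31.9% of all probes. The median difference, Mutant113 minus Mutant097, was -1.09 for mitosis and -0.72 for S phase. Foxm1 differed by -1.04 (SE 0.22, limma adjusted p = 0.144) and Cdt1, a licensing factor, by -0.82 (SE 0.20, adjusted p = 0.179), whereas Mybl2 differed by 0.01. Of the members, 0 were called, against 0.108% of all probes called lower. At an unadjusted p under 0.05, 14 mitosis and 11 S phase members were lower, against 7.16% of all probes. Title number, slide row and sex-linked expression cannot be told apart here.

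Set against wild type, the normal skin of Mutant097 had 9 members called higher, all of mitosis, where 0.782% of all probes were. They were Cenpe (2.75), Ccnb2 (2.62), Mki67 (2.54), Cdc20 (2.46), Plk1 (2.42), Ube2c (2.42), Cdca8 (2.12), Prc1 (1.75) and Foxm1 (1.60), with limma adjusted p-values from 0.0343 to 0.0495. The mitosis median was 2.42 and the S phase median 0.78. In the normal skin of Mutant113 the medians were 1.46 and 0.16, and 0 members were called, against 1.77% of all probes called higher. The gap between the classes was present in both: 4 of the 6 MCM subunits of Mutant113 (Mcm2, Mcm3, Mcm4 and Mcm6) were within 0.13 of wild type, while Kif11 was higher by 2.06 and Mybl2 by 2.14.

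The difference between hair loss and normal skin also had other values in each title number. Within Mutant097 the mitosis median was -0.01, with 11 members higher and 12 lower, and the S phase median -0.18, with 3 higher and 13 lower. Within Mutant113 all 39 members were higher in hair loss skin, with medians of 0.57 and 0.32. The difference between these effects was tested by the interaction term, with 1 hair loss sample per number. It was above 0 for 22 of 23 mitosis and 16 of 16 S phase members, with medians of 0.57 and 0.47, but 0 members were called, as of all probes (0.00%). At an unadjusted p under 0.05, the interaction was positive for 1 member, Gins2, against 4.53% of all probes. Mybl2 went the other way, higher by 1.20 in hair loss skin within Mutant097 and by 0.05 within Mutant113.

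**Figure D5:**
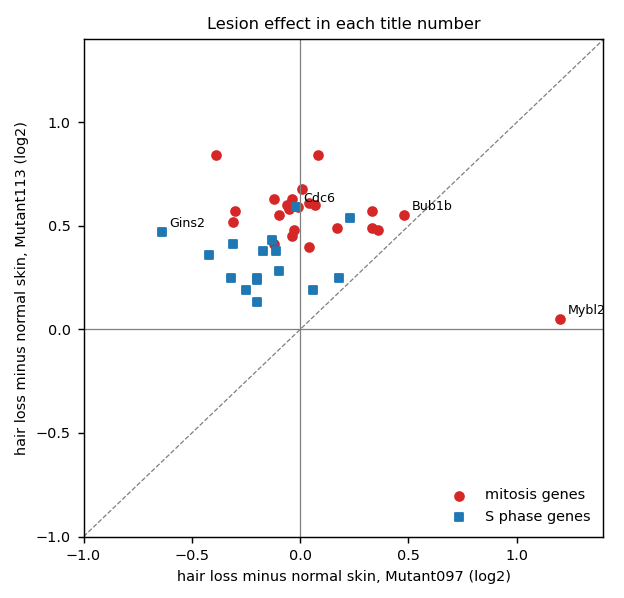
Difference between hair loss and normal skin (log2) for each tested member, within Mutant097 on the horizontal axis and within Mutant113 on the vertical axis; the dashed line marks equal differences, and each axis rests on 1 hair loss and 2 normal samples. All points lie above 0 on the vertical axis, and they scatter around 0 on the horizontal axis, apart from Mybl2 at 1.20.

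Genes of the cycle outside the 42 members, from lists drawn up by function, showed the same order of medians. Of the other mitosis genes, 43 were tested, and 39 were higher in mutant normal skin than in wild type, with a median of 1.24. Of 36 other S phase genes, 33 were tested, and 32 were higher, with a median of 0.50. None of either list was called. Nek2, a centrosome kinase, had the smallest p: it was not well above background in wild type, and mutant normal skin exceeded it at least 2.73-fold (limma adjusted p = 0.0684, measured means -4.49 in wild type and -1.92 in mutant normal skin). In hair loss skin against wild type it rose at least 3.85-fold (limma adjusted p = 0.0474), the 1 call among these genes in that comparison, where 0.993% of all probes were called higher. In Mutant097 normal skin against wild type, 4 of the other mitosis genes were called, where 0.782% of all probes were called higher. They were Melk (2.87), Racgap1 (1.73), and Cdc25c and Kif18b, whose probes were not well above background in wild type. Dbf4, the activator of the Cdc7 kinase at origins, differed by 1.42 in mutant normal skin (limma adjusted p = 0.151).

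Lists of cell cycle regulators had smaller medians, with larger differences in single genes. The 7 G1 cyclins and Cdks tested had a median difference of 0.21 in mutant normal skin, and Ccnd3, a D-type cyclin, differed by -0.49 (limma adjusted p = 0.220). The 8 Cdk inhibitors had a median of 0.36, with Cdkn3, a phosphatase that acts on Cdks, at 1.01 (adjusted p = 0.213). The largest difference among them was 1.99 (SE 0.85, limma adjusted p = 0.288), that of Cdkn2a, which was named after its values were seen. The gene can encode an inhibitor of the Rb kinases, but which of its transcripts the probe read was not tested. The 13 genes of the Rb, E2F and MuvB family had a median of 0.28, with E2f3, an activating E2F, at 1.16 (adjusted p = 0.137). Of 9 genes of quiescence and cell cycle exit, 1 was called, where 0.575% of all probes were called higher. Btg2, an antiproliferative gene, was at 2.14, 2.09, 2.32 and 2.44 in mutant normal skin, above both wild type samples, and rose by 1.15 (SE 0.19, limma adjusted p = 0.049). In hair loss skin it was at 2.44 and 2.05.

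Markers of other cells of skin differed beside these genes. Of 13 hair matrix and shaft genes, 11 were tested, and 10 were higher in mutant normal skin than in wild type. Of the genes tested, 7 were called, among them the hair keratin Krt35, by 9.33, where 0.575% of all probes were called higher. Shh was not well above background on enough arrays to be tested. The mean of this list, relative to wild type, was 4.74 to 6.46 in mutant normal skin, 5.87 and 7.11 in hair loss skin, and -0.62 and 0.62 in wild type. By title number it was 5.74 and 4.74 in Mutant097 normal skin and 6.46 and 5.70 in Mutant113 normal skin, which overlap, and 7.11 and 5.87 in the hair loss samples of Mutant097 and Mutant113. The part of these cells in the cell cycle values was not tested.

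Lists of markers of other cell types were set against wild type in the same way, and not all of them lay apart from it. Wild type replicates 1 and 2 were at 0.15 and -0.15 for T and NK cell genes and at -0.54 and 0.54 for wounded epidermis. For skeletal muscle they were at -0.13 and 0.13. In these lists some mutant samples overlapped the wild type pair. The 8 tested interfollicular epidermis genes had a mean of 0.19 to 0.43 in mutant normal skin and 0.62 and 0.65 in hair loss skin. Keratins and alarmins of wounded epidermis were at 0.23 and 0.62 in Mutant097 normal skin, at 3.06 and 1.47 in Mutant113 normal skin and at 3.44 and 3.01 in hair loss skin. Melanocyte genes were at 0.42 to 2.46 in mutant normal skin and 1.45 and 2.31 in hair loss skin. Myeloid genes were lower than in wild type in all 6 mutant samples, at -0.90 to -0.30, and T and NK cell genes were at -0.57 to 0.11, with Cd8b1 well above background on 0 arrays. Fibroblast genes were at -1.51 to -0.23. The 8 skeletal muscle genes were at -0.78 and -1.73 in Mutant097 normal skin, at -0.23 and 0.06 in Mutant113 normal skin and at -1.66 and -2.61 in hair loss skin. The part of these lists in the cell cycle values was not tested.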

How the data were processed

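Skin RNA of 8 samples was measured on single-colour arrays. Per the file headers, the deposited intensity of each spot was corrected for background and spatial trends by the scanner software, Agilent Feature Extraction 11.5.1.1. The deposited matrix of the authors holds log2 values, which equal the log2 processed signal after 1 shift per array (largest deviation 0.0, tolerance 0.01). Outlier spots (118 to 210 per array) were left out, 0 spots were saturated, and 78 of 55681 probes were dropped. Values were log2 intensity minus the 75th percentile of the array. Probes well above background on at least 2 of 8 arrays were tested (30417), and 25424 to 30205 probes per array were well above it. The number of arrays limits the precision.

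Symbols came from RefSeq accessions. The model of limma 3.58.1 in R 4.3.3 fitted the 3 groups over all arrays, and a second model each group and title number; tests were two-sided, and the fit was tested on simulated data. Bounds ("at least N-fold") set the mean of the brighter group against, per array of the dimmer group, the higher of the measured value and the lowest signal of any probe well above background. The members, lists and tests were chosen with earlier results of these data known. Every member could be named; values in every sample were given for the 5 members of each class with the smallest p in mutant normal skin against wild type, the 2 with the smallest differences there, and the 2 with the smallest p in hair loss against mutant normal skin, and of other lists the gene with the smallest p was named. E2f1, Cdt1, Mki67, Pcna, Cdk1 and the genes compared by title number were chosen after their values were seen, as were the printed promoters. Alternatives were another normalization, background correction, filter, block, probe choice, the deposited matrix, and leaving out each array. The normexp correction used median in place of mean spot signals.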

Additional observations from a re-analysis of the deposited data

Results flagged for a closer look

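In 7 of the 39 members tested (17.9%), the hair loss sample lay below both normal samples of Mutant097 and above both of Mutant113. The same pattern was found in 17.4% of all probes tested. The difference between the effects, Mutant113 minus Mutant097, was 1.23 for Nusap1, 1.11 for Gins2, 0.84 for Prc1, 0.78 for Pcna, 0.72 for Cdt1, 0.57 for Mcm6 and 0.45 for E2f1. The effects themselves were -0.39 and 0.84 for Nusap1 and -0.64 and 0.47 for Gins2. The genes were chosen for these opposite signs and each number has 1 hair loss sample, so these values are a description; the interaction term across all members, in the report, called 0 of them.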

How the results depend on the processing

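In mutant normal skin against wild type, 0 members were called under all 17 alternatives; the mitosis median ran from 1.19 (normexp) to 2.27, the S phase median from 0.16 to 0.70, and the median gap from 0.87 to 1.59. Gins2 ran from -0.31 to 0.02 when 1 sample was left out, 0.02 being without mutant normal skin replicate 4. In hair loss skin against wild type the count of 3 became 0 with no filter, 0 with slide row as a block, 0 with 1 mean per group and title number, and 10 with only the 2 groups fitted; leaving out 1 sample gave 0 to 7. These counts were not set against the share of all probes called under the same setting. In hair loss skin against wild type the mitosis median was 1.35 under normexp and 1.16 with slide row as a block. The S phase median was -0.10 with that block. Kif11 passed the threshold under 6 of 16 alternatives (adjusted p 0.0305 to 0.217; 0.98 under normexp), Ube2c under 9 of 17 (0.0285 to 0.232) and Mybl2 under 9 of 17 (0.031 to 0.232). In hair loss against mutant normal skin, the slide row as a block, which leaves only Mutant097 normal skin for the comparison, gave medians of -0.30 for S phase and -0.29 for mitosis, and -0.09 for Cdc6; leaving out 1 sample moved the S phase median between -0.10 and 0.26. Title number as a replicate block gave 0 calls and the same medians, 0.07 and 0.29; the labels do not say that the number pairs samples, and only 2 numbers are shared, so no correlation of pairs was used. Apart from the values above, the cause of these changes was not tested. Of the values of single genes under the alternatives, 343 kept their side of the threshold, mostly in genes not called to begin with. The 26 that lost it are those of Kif11, Ube2c and Mybl2 in hair loss against wild type, already given above.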

Other observations

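Samples with the letter B and A in their titles, which the labels do not explain, also differed. In the normal skin of Mutant097, B lay above A for 23 of 23 mitosis members and 15 of 16 S phase members, and in that of Mutant113 for 23 and 14. In the wild type B lay above A for 1 mitosis member and 2 S phase members. Over all probes tested, the share with B above A was 47.6%, 52.1% and 49.4%. Replicate 1 of hair loss skin (Mutant097) was above replicate 2 (Mutant113) for 22 mitosis members and 13 S phase members, against 51.6% of all probes. Both of these samples carry the letter S, so the pair differs in title number and not in letter.

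Outside the members, Cdk6, a G1 kinase chosen here after its values were seen, was well above background on the hair loss arrays and on 0 others, at -2.32 and -3.57. It entered the test only through those arrays, so its difference from the other groups is not tested here. Cdkn2a differed by 3.23 (SE 0.98) between hair loss skin and wild type (limma adjusted p = 0.111).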
